A study of Mus musculus with 8 samples.

Results

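The 10 genes described here encode enzymes of glycolysis that hold one of its regulated steps or its last step, and carriers that bring glucose in or lactate out: Hk1, Hk2, Pfkl, Pfkm, Pfkp, Pkm, Ldha, Slc2a1, Slc2a3 and Slc16a3. They were chosen by gene symbol, with earlier results of these data known, from the 54018 identifiers of the expression table. All 10 were found, each by 1 identifier. All 10 passed the filter of at least 1 FPKM (fragments mapped to a gene, divided by transcript length and by the fragments mapped in the library) in at least 4 of 8 libraries, which left 12890 genes.

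The 8 libraries were made from polyadenylated RNA of splenic mononuclear cells of leukaemic C57BL/6 mice. All 8 carried the Eµ-TCL1A transgene, in which an immunoglobulin enhancer drives the human TCL1A oncogene in B cells, a model of chronic lymphocytic leukaemia. The knockdown group (genotype Kdm1aKD;Eµ-TCL1A, replicates 1, 2, 4 and 5) also carried a doxycycline-inducible knockdown of Kdm1a, a histone lysine demethylase, and leukaemic mice received doxycycline to induce it. The control group (genotype Eµ-TCL1A, replicates 1 to 4) carried Eµ-TCL1A alone, and the labels do not say whether those mice received doxycycline. Ages are not given, and no label ties a library to 1 animal, so that each p-value reflects spread among these libraries, which may be technical. Values in a row below follow the replicate order of their group.

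Glycolysis splits glucose into pyruvate. Hexokinases trap glucose in the cell by phosphorylating it, phosphofructokinase commits it to the pathway, pyruvate kinase makes ATP in the last step, and lactate dehydrogenase turns pyruvate into lactate. Most of these steps are served by several isoenzymes from separate genes, and blood lineages use different sets of them: dividing lymphocytes use the M type of pyruvate kinase, whereas red cells use the R type from Pklr. Activated and malignant B cells are known for high glucose uptake.

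The upstream sequence of members that the results turn on is shown first, because the hypoxia factor HIF and MYC are known regulators of glycolysis genes and Gata1 is among the genes set beside Pfkm below. RefSeq promoter entries (GRCm38.p6) matched 9 of the 10 members with 15 annotated starts, and Slc2a3 had no entry. Each 250-base window before a start was searched on both strands for ACGTG, the core of the hypoxia response element, for CACGTG, an E-box that MYC family factors can bind and that holds ACGTG on each strand, and for AGATAA, the GATA factor motif, also with T as its first or G as its last letter. In the sequences below, read 5′ to 3′ on the gene's strand, capitals mark these matches, and CACGT without a final G is ACGTG on the other strand. The Pfkm and Slc16a3 windows belong to the only 2 members past the threshold, and those of Ldha and Hk2 are shown for comparison. The Slc16a3 window stops where an annotated exon begins.
Pfkm, chr15:98092339-98092588, plus strand: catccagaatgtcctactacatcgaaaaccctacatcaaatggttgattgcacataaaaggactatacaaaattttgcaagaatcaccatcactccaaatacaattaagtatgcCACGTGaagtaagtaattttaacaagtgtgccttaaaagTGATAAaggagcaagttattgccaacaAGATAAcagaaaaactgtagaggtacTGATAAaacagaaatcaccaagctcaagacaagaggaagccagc
Slc16a3, chr11:120948817-120949052, plus strand: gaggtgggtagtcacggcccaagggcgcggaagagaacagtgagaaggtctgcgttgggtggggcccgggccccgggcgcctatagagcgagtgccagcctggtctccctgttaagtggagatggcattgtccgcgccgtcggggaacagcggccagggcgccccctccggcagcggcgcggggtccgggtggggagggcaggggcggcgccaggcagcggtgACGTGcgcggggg
Ldha, chr7:46845554-46845803, plus strand: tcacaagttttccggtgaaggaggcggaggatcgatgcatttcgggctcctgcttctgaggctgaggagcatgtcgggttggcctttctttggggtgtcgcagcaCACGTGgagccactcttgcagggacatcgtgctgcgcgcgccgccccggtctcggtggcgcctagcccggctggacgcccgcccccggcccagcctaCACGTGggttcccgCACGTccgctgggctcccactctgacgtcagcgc
Hk2, chr6:82774455-82774704, minus strand: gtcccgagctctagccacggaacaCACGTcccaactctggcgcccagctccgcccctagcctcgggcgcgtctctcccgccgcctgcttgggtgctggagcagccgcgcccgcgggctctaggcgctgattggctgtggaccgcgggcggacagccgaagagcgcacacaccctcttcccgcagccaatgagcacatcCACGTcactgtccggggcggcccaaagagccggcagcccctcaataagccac
The Pfkm window held 1 CACGTG and 3 GATA matches, and the Ldha window 2 CACGTG and a further ACGTG. The sequence with most matches is shown of Pfkm and Ldha: another of the 4 Pfkm windows and the second Ldha window held none of these letters. The Slc16a3 bases shown held 1 ACGTG, and the Hk2 window 2. ACGTG was in 7 of the 15 member windows, from 6 genes, and in 16.6% of all 32851 windows. A GATA form was in 4 of the 15 member windows, of Pfkm and Pkm, and in 26.5% of all windows. Of the Pfkm windows, 2 overlap and share 1 such site. Matches in annotated exon bases were counted too, and that of Pkm is such a match. The windows of Hk1, Pfkl and Pfkp held none of these letters. A match is a description of the sequence only, and FPKM per gene do not say which of the 4 annotated Pfkm starts was used.

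Kdm1a itself measured 20.2, 21.0, 15.5 and 15.6 FPKM with knockdown and 24.2, 21.2, 24.1 and 31.1 FPKM in control spleens. The groups did not overlap, with a log2 difference of −0.45 (two-sided exact permutation p = 0.0286 over 70 assignments, the smallest possible; limma adjusted p over all genes 0.223). The exact permutation p was 0.0571 to 0.114 without any 1 of knockdown replicates 1, 4 and 5 or control replicates 1, 3 and 4. The estimated depth was 40300000 to 46800000 fragments per library. Control replicate 4 had the lowest FPKM total, 572660, whereas no other library had less than 671732 or more than 762888. Its Pearson r was 0.910 to 0.929 with the other controls, which had 0.956 to 0.962 among themselves. Knockdown replicate 4 had 0.888 to 0.928 with its group, whose remaining pairs had 0.935 to 0.960. The cause of these differences was not tested. Knockdown replicate 4 had 31279 FPKM of erythroid markers in sum against 1129 to 8545 FPKM in the other 7. Xist, the RNA of the inactive X chromosome, reached 94.9 FPKM or more in all knockdown libraries and in control replicate 1, whereas the other control libraries stayed at 0.128 FPKM or less. Sex and group therefore cannot be told apart except through control replicate 1. In bulk RNA, fewer cells of a type and less RNA per cell cannot be told apart either.

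Among the members, Pfkm and Slc16a3 were higher in the knockdown libraries past the threshold, none was lower, and the remaining 8 did not pass. Thus 2 of 10 were higher at an adjusted p under 0.05 (limma on log2(FPKM + 1)), where 1.63% of all genes tested were. In the same fit 0 were lower, where 0.109% of all genes were. As the members and lists were chosen with earlier results known, the shares of all genes stand beside their counts as a description. Slc16a3 counts among the 2, although it met the filter only through the knockdown libraries. At an unadjusted p under 0.05, 6 members were higher and 0 lower, against 15.8% and 3.41% of all genes. These counts move with scaling: median-of-ratios scaling gave 4 members higher and 1 lower (1252 and 930 of all genes), and quantile normalization 5 and 1 (1208 and 1107 of all genes), with the median of all genes at 0.00 and −0.03. In 5 members (Hk1, Pfkl, Pfkm, Slc2a3 and Slc16a3) every knockdown library lay above every control library, as in 11.2% of all genes, and in 0 members every one lay below, as in 1.9% of all genes. A log2 difference of at least 1 was found in 3 members (Hk1, Pfkm and Slc2a3) and in 5.73% of all genes. The median log2 difference of the members was 0.50, and that of all 12890 genes was 0.13, so differences near 0.13 are those of a typical gene in this table.

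**Figure D1:**
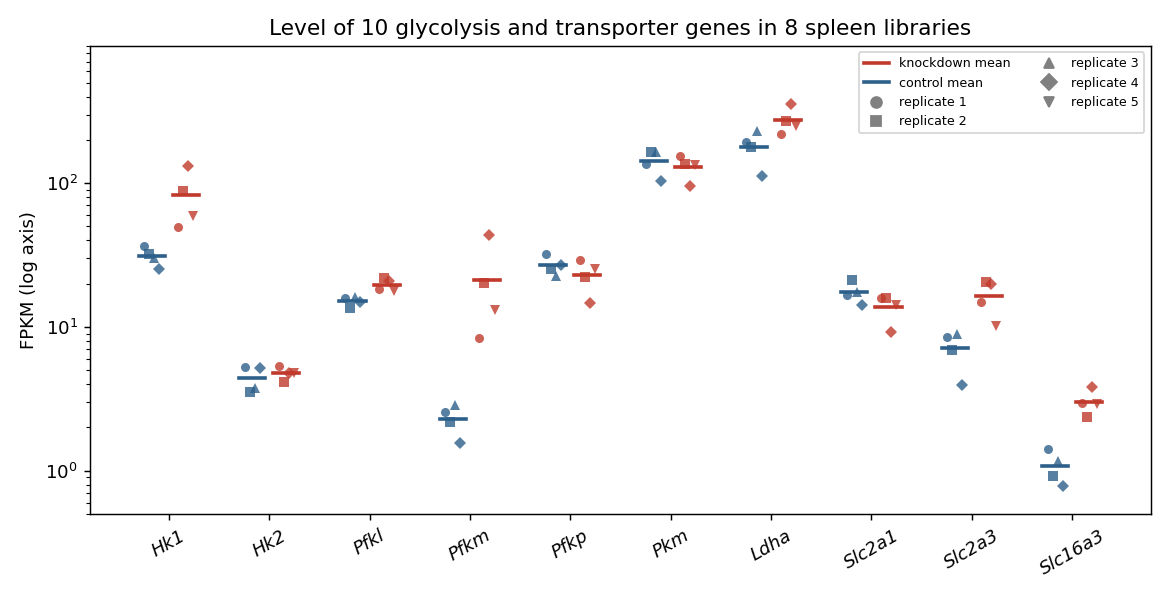
FPKM on a log axis of the 10 members in each library, with control libraries in blue and knockdown libraries in red, symbols for replicate numbers and bars for group means. Pfkm has the widest gap between groups (2.29 against 21.3 FPKM on average), while Hk2, Pfkp, Pkm, Ldha and Slc2a1 overlap.

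Of the hexokinase transcripts among the members, that of Hk1, the widely expressed form, was the more abundant in every library. Hk1 (ENSMUSG00000037012, chromosome 10, 62268855 to 62379908, minus strand, in GRCm38 as for all positions below) measured 49.7, 88.7, 132 and 59.5 FPKM with knockdown. Its controls measured 36.3, 32.2, 30.3 and 25.1 FPKM in replicates 1 to 4. All knockdown libraries lay above all controls, and replicate 4 was the highest of the one group and the lowest of the other. The means were 82.4 ± 36.7 and 31.0 ± 4.66 FPKM (SD, n = 4), a ratio of 2.66 and a log2 difference of 1.29 with a 95% interval of 0.64 to 1.95. This did not pass over all genes (limma adjusted p = 0.0634), and it passed without knockdown replicate 1 (adjusted p = 0.0391). An antisense gene, Hk1os, lies within the span of Hk1, and the use of strand is not given in the sources used here.

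Hk2, the inducible hexokinase of muscle, fat and many tumours (ENSMUSG00000000628, chromosome 6, 82725025 to 82774454, minus strand), had a far lower level. Levels of 5.35, 4.13, 4.79 and 4.82 FPKM with knockdown overlapped those of 5.26, 3.53, 3.73 and 5.15 FPKM in controls. Its log2 difference was 0.10 (interval −0.30 to 0.51, adjusted p = 0.774), and turned to −0.016 after median-of-ratios scaling and to −0.11 after quantile normalization. The Hk2 share of the summed Hk1 and Hk2 FPKM was 9.72%, 4.45%, 3.51% and 7.49% in the knockdown libraries and 12.7%, 9.86%, 10.98% and 17.03% in the controls. It was lower in every knockdown library, with means of 6.29 ± 2.85% and 12.6 ± 3.15% (SD, n = 4). The exact permutation test gave p = 0.0286, or 0.05 adjusted over the 7 isoenzyme shares compared, which is not under the threshold. With 4 libraries per group 0.0286 is the smallest possible p. An adjusted 0.05 therefore depends on how many shares reached that p, and it does not measure the size of the difference. The summed level of both hexokinases was 87.1 against 35.4 FPKM on average.

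Phosphofructokinase, a tetramer built from liver (Pfkl), muscle (Pfkm) and platelet (Pfkp) type subunits, had 1 subunit gene past the threshold. Pfkm, whose loss is known to affect muscle and red cells (ENSMUSG00000033065, chromosome 15, 98092589 to 98132451, plus strand), measured 8.38, 20.1, 43.6 and 13.1 FPKM with knockdown. Its controls measured 2.57, 2.17, 2.87 and 1.55 FPKM. The lowest knockdown library was thus well above the highest control, and the knockdown libraries spread widely among themselves. The means were 21.3 ± 15.6 and 2.29 ± 0.572 FPKM (SD, n = 4), a ratio of 9.30. The log2 difference of 2.53 ± 0.42 (SE; interval 1.59 to 3.47) passed over all genes (limma adjusted p = 0.0227). Control replicate 1, the control with Xist, lay within the range of the other controls. Senp1 on the opposite strand and Gm26513 on the same strand overlap Pfkm.

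The call for Pfkm did not hold with every library left out, although its log2 difference stayed between 2.11 and 2.86. Leaving out control replicates 1, 2, 3 and 4 in turn gave adjusted p-values of 0.0547, 0.0753, 0.0694 and 0.0956, and leaving out knockdown replicate 2 gave 0.132. The adjusted p was between 0.0126 and 0.0324 without any 1 of the other knockdown libraries, and 0.0459 without replicate 4 of both groups.

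Pfkl (ENSMUSG00000020277, chromosome 10, 77986947 to 78010083, minus strand) had the lowest coefficient of variation of the members in each group. Its levels were 18.4, 21.7, 20.7 and 17.9 FPKM with knockdown and 15.9, 13.6, 16.1 and 15.0 FPKM in controls. The groups did not overlap, and its log2 difference of 0.35 (interval 0.02 to 0.69) did not pass (adjusted p = 0.241). Pfkp (ENSMUSG00000021196, chromosome 13, 6579768 to 6648777, minus strand) measured 29.3, 22.3, 14.7 and 25.4 FPKM against 32.3, 25.3, 22.5 and 27.0 FPKM in the controls. Its groups overlapped, with knockdown replicate 4 the lowest of all libraries, and the log2 difference was −0.24 (interval −0.75 to 0.26, adjusted p = 0.565), or −0.054 without that library. Pitrm1 on the opposite strand overlaps Pfkp.

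In the controls Pfkp was the leading subunit transcript, with 54.2% to 63.6% of the summed FPKM of the 3 genes, and Pfkm the least, with 3.55% to 6.93%. In knockdown replicates 1, 2, 4 and 5 the Pfkm share was 14.9%, 31.3%, 55.2% and 23.2%, and the Pfkp share 52.3%, 34.8%, 18.6% and 45.1%. Neither share overlapped between groups. The Pfkm share was 31.2 ± 17.4% against 5.20 ± 1.38% (SD, n = 4) and the Pfkp share 37.7 ± 14.6% against 60.3 ± 4.16%, each with an exact permutation p of 0.0286 (0.05 adjusted over the 7 shares). The Pfkl share was 31.2% against 34.5% (exact permutation p = 0.229, adjusted 0.3), with overlap. The shares of the 3 genes add up to the whole, so they are not independent tests. Without replicate 4 of both groups the differences were 17.4 percentage points for Pfkm and −15.7 for Pfkp. The summed phosphofructokinase level was 63.9 ± 10.7 against 44.2 ± 4.52 FPKM, a ratio of 1.45, so the sum differed far less between groups than Pfkm alone.

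**Figure D2:**
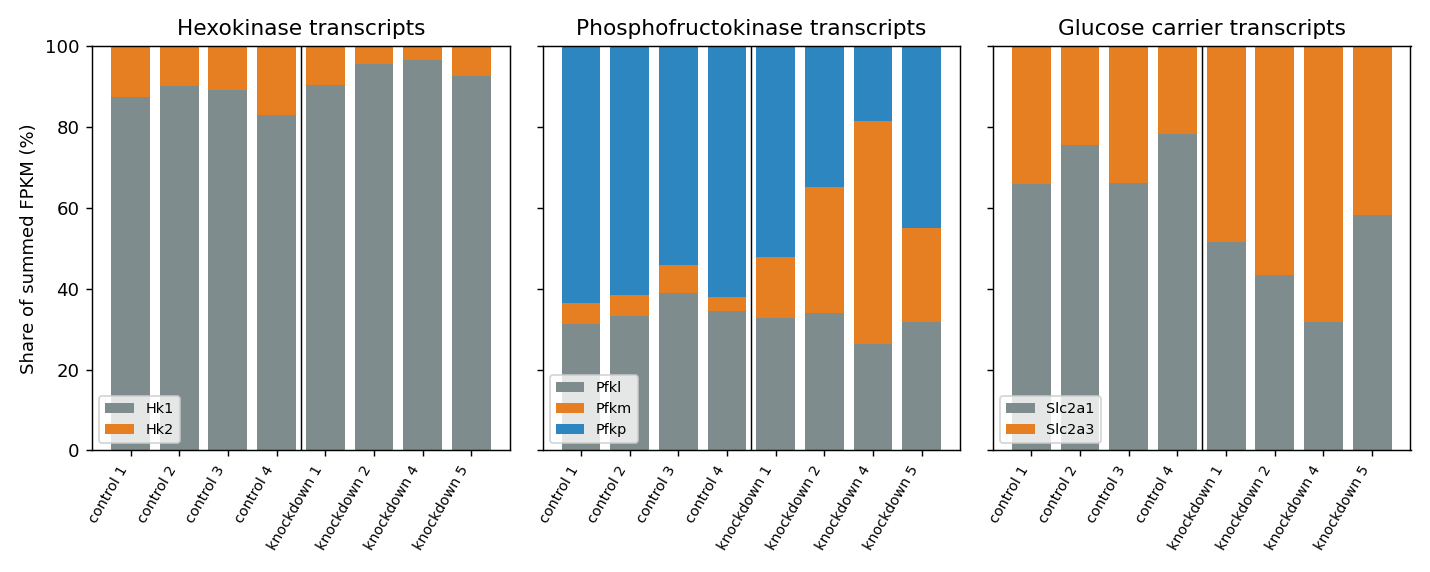
Stacked bars give each isoenzyme's percentage of the summed FPKM of its family in every library, controls on the left and knockdown libraries on the right of each panel. The Pfkm share runs from 3.55% to 6.93% in controls and from 14.9% to 55.2% in knockdown libraries.

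Pyruvate kinase M and lactate dehydrogenase A had the highest mean levels of the 10 members in both groups, although Hk1 lay above Pkm in knockdown replicate 4. Pkm (ENSMUSG00000032294, chromosome 9, 59656368 to 59679375, plus strand) measured 155, 136, 95.1 and 135 FPKM with knockdown and 135, 163, 165 and 104 FPKM in controls. The groups overlapped, with replicate 4 lowest in each, and the log2 difference was −0.12 (interval −0.62 to 0.37, adjusted p = 0.781), turning to 0.019 without knockdown replicate 4. One FPKM per gene does not separate the M1 and M2 splice forms of Pkm, and Gm49759 on the same strand overlaps Pkm. Ldha (ENSMUSG00000063229, chromosome 7, 46841475 to 46855627, plus strand) measured 221, 271, 358 and 249 FPKM with knockdown. Its controls measured 193, 179, 230 and 112 FPKM. Knockdown replicate 1 lay below control replicate 3, so the groups overlapped by that pair. The log2 difference of 0.64 (interval 0.07 to 1.22) did not pass (adjusted p = 0.221). The annotation names 2 Ldha pseudogenes, whose reads can be hard to tell from those of Ldha. Ldha made up 98.2% to 99.6% of the summed Ldha and Ldhb FPKM in every library, and this share differed by −0.29 percentage points between groups (exact permutation p = 0.429; adjusted 0.429).

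The glucose carriers GLUT1 (Slc2a1) and GLUT3 (Slc2a3) had differences of opposite sign. Slc2a3, the high-affinity carrier (ENSMUSG00000003153, chromosome 6, 122727809 to 122801640, minus strand), measured 15.0, 20.6, 19.8 and 10.2 FPKM with knockdown and 8.54, 6.86, 8.98 and 3.94 FPKM in controls. The groups did not overlap, with knockdown replicate 5 and control replicate 3 nearest to each other. The ratio of means was 2.31 and the log2 difference 1.11 (interval 0.46 to 1.76), which did not pass over all genes (adjusted p = 0.0945). The processed pseudogene Gm4482 lies on the same strand within its span. Slc2a1, the basal carrier (ENSMUSG00000028645, chromosome 4, 119108711 to 119137983, plus strand), measured 15.8, 15.8, 9.20 and 14.2 FPKM against 16.6, 21.2, 17.6 and 14.2 FPKM. Its groups overlapped, and the log2 difference was −0.33 (interval −0.81 to 0.14, adjusted p = 0.407), or −0.16 without knockdown replicate 4.

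As a share of the summed FPKM of both carriers, Slc2a3 held 48.6%, 56.6%, 68.3% and 41.8% in the knockdown libraries and 34.0%, 24.4%, 33.9% and 21.8% in the controls. Slc2a1 thus led in every control library, and Slc2a3 led in knockdown replicates 2 and 4. The mean share was 53.8 ± 11.4% against 28.5 ± 6.36% (SD, n = 4; exact permutation p = 0.0286, adjusted 0.05). The sum of the carriers was 30.2 ± 4.97 against 24.5 ± 4.41 FPKM.

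Slc16a3, the lactate exporter MCT4 of strongly glycolytic cells (ENSMUSG00000025161, chromosome 11, 120948480 to 120960868, plus strand), had the lowest level of the members in each group. With knockdown it measured 2.97, 2.38, 3.80 and 2.91 FPKM. The controls measured 1.42, 0.916, 1.18 and 0.788 FPKM. The groups did not overlap and control replicate 1, with Xist, was the highest control. The ratio of means was 2.81, and the log2 difference of 0.95 ± 0.18 (SE; interval 0.54 to 1.36) passed over all genes (limma adjusted p = 0.0355). The added 1 understates the change at such levels. Control replicates 2 and 4 were under 1 FPKM, so Slc16a3 met the filter only through the knockdown libraries. Without the filter its adjusted p was 0.155 (limma). The call was lost with any 1 of the 8 libraries left out (adjusted p from 0.0613 to 0.134, log2 difference from 0.86 to 1.03) and without replicate 4 of both groups (0.118). The share of Slc16a3 in the summed FPKM of Slc16a1 (MCT1, which carries lactate both ways) and Slc16a3 was 15.6 ± 7.06% against 10.7 ± 1.78%, with overlap (exact permutation p = 0.257; adjusted 0.3).

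Ordered by mean FPKM, the controls ran Ldha, Pkm, Hk1, Pfkp, Slc2a1, Pfkl, Slc2a3, Hk2, Pfkm and Slc16a3. The libraries of Ldha and Pkm overlapped there, as did those of Hk1 and Pfkp, Slc2a1 and Pfkl, and Slc2a3 and Hk2, and those of the other neighbours did not. In the knockdown libraries the order was Ldha, Pkm, Hk1, Pfkp, Pfkm, Pfkl, Slc2a3, Slc2a1, Hk2 and Slc16a3. Pfkm moved from the ninth to the fifth place, and its range of 8.38 to 43.6 FPKM there overlapped those of Pfkp, Pfkl, Slc2a3 and Slc2a1. The coefficient of variation in the knockdown libraries was 73.5% for Pfkm and 44.6% for Hk1, and 9.45% for Pfkl.

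Among the other enzymes of the pathway, Pklr alone passed the threshold. Of 19 other glycolytic enzyme genes 14 passed the filter, of which 1 was higher past the threshold (against 1.63% of all genes) and 0 were lower. At an unadjusted p under 0.05, 3 were higher and 0 lower, beside 15.8% and 3.41% of all genes. Their median log2 difference was 0.30, beside 0.13 for all genes. The call was Pklr, the pyruvate kinase of liver and red cells, with 9.94, 31.7, 58.4 and 27.2 FPKM under knockdown and 4.95, 3.31, 2.68 and 2.93 FPKM in controls. Its log2 difference was 2.67 ± 0.44 (SE; adjusted p = 0.0227), close to that of Pfkm, and the adjusted p was 0.0806 without replicate 4 of both groups. Leaving out knockdown replicate 2 gave 0.133, and leaving out control replicates 2, 3 and 4 in turn gave 0.0753, 0.0790 and 0.0956. The ratio of Pkm to Pklr FPKM was 27.3 to 61.7 in the controls and 15.6, 4.28, 1.63 and 4.95 in the knockdown libraries. Hk3, the hexokinase of myeloid cells, had 4.21 against 2.02 FPKM (log2 difference 0.77, adjusted p = 0.123). The phosphoglycerate mutase gene Pgam1 had 90.7 against 61.0 FPKM (log2 difference 0.53, adjusted p = 0.216; 0.35 without knockdown replicate 4). Gapdh, which acts between phosphofructokinase and pyruvate kinase, had a log2 difference of 0.17 (adjusted p = 0.693).

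Of 15 other carrier genes 10 passed the filter, all with a positive log2 difference, where 63.7% of all genes had one. None passed the adjusted threshold in either direction (limma), and the median was 0.53. At an unadjusted p under 0.05, 4 were higher and 0 lower, beside 15.8% and 3.41% of all genes. Slc16a1 measured 9.22, 16.2, 45.2 and 13.9 FPKM under knockdown and 7.42 to 10.2 FPKM in controls (log2 difference 0.92, adjusted p = 0.248; 0.49 without knockdown replicate 4). Bsg, the chaperone of MCT1 and MCT4, had 216 against 118 FPKM (0.75, adjusted p = 0.251; 0.42 without that library). The glucose carrier genes Slc2a6 and Slc2a8 had log2 differences of 0.63 and 0.62 (adjusted p = 0.198 and 0.207). In the pentose phosphate pathway, which branches off after hexokinase to make NADPH and ribose, 0 of 7 genes passed in either direction (limma). Their median log2 difference was 0.45. Of the 7, 4 were higher and 0 lower at an unadjusted p under 0.05, beside the same shares of all genes. Tkt, the transketolase gene, had 245 ± 91.5 against 118 ± 27.1 FPKM (1.004, adjusted p = 0.128). G6pdx, the X-linked gene of the entry enzyme, had 37.6 ± 12.0 against 20.7 ± 3.04 FPKM (0.79, adjusted p = 0.137). In both genes every knockdown library lay above every control library, as in 11.2% of all genes.

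**Figure D3:**
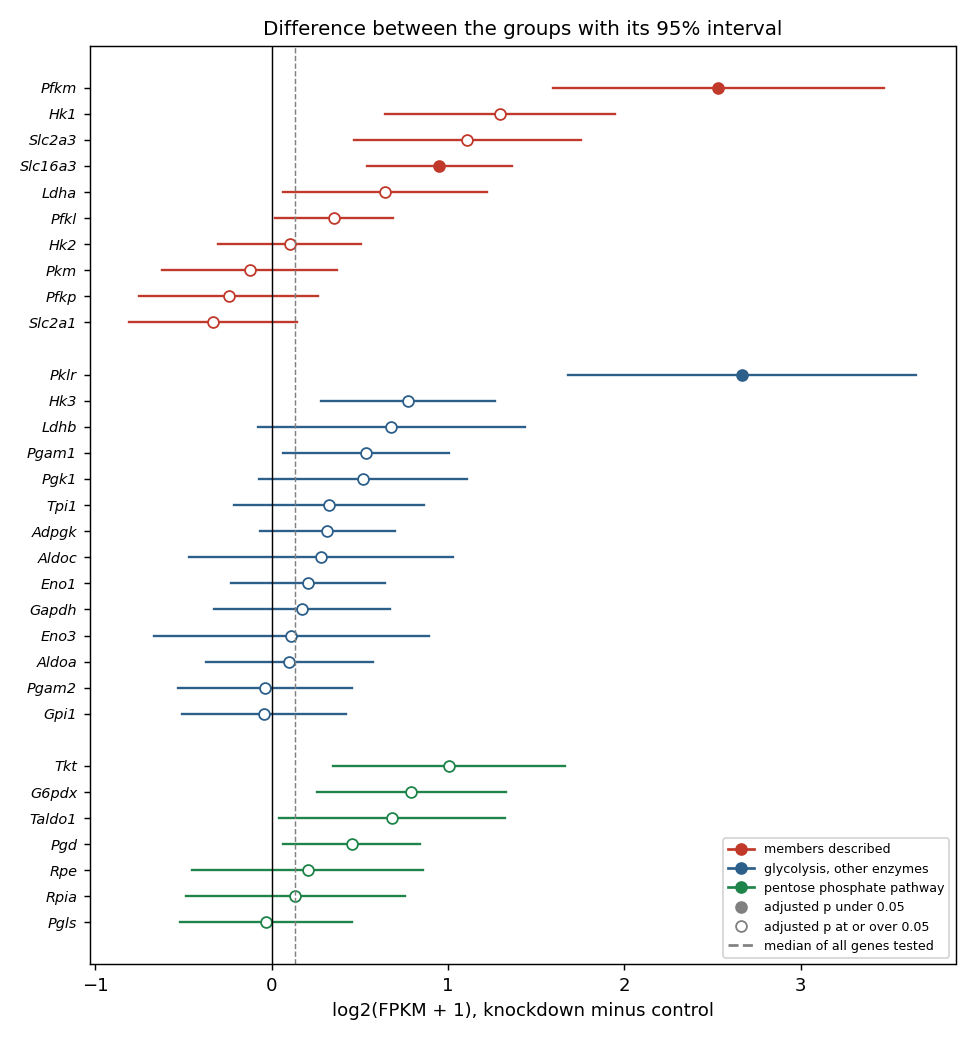
Points give the difference in log2(FPKM + 1), knockdown minus control, with 95% intervals from limma, for the members (red), the other glycolytic enzymes (blue) and the pentose phosphate genes (green); filled points have an adjusted p under 0.05 and the dashed line is the median of all genes tested, 0.13. Pfkm at 2.53 and Pklr at 2.67 stand farthest to the right.

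Within the knockdown group, erythroid regulator genes had the same order of libraries as Hk1, Pfkm and Pklr, as had genes of other lists. Of 14 erythroid markers matched, 1 was higher past the threshold (1.63% of all genes were) and 0 were lower, and none was at 0 in any library. At an unadjusted p under 0.05, 6 were higher and 0 lower (15.8% and 3.41% of all genes), and 4 were higher without overlap (11.2% of all genes). The call was Gata1, the erythroid and megakaryocytic regulator, with 21.2, 51.9, 130 and 30.1 FPKM under knockdown against 5.46 to 6.77 FPKM in controls (log2 difference 2.71, adjusted p = 0.0254). Its adjusted p rose to 0.0617, 0.0765, 0.0813 and 0.0963 with control replicates 1 to 4 left out in turn, to 0.134 with knockdown replicate 2 left out, and was 0.0437 without replicate 4 of both groups. Klf1, a red cell transcription factor gene, had 26.6, 92.9, 215 and 50.04 FPKM against 14.0 to 20.6 FPKM (adjusted p = 0.0922). Epor, the erythropoietin receptor gene, had 10.9, 30.6, 71.6 and 15.8 FPKM against 4.76 to 6.30 FPKM (adjusted p = 0.0732), and the carbonic anhydrase gene Car1 had 91.3, 171, 549.7 and 151 FPKM against 23.0 to 75.1 FPKM (adjusted p = 0.114). Hk1, Pfkm, Pklr, Gata1, Klf1, Epor and Car1 all had the order replicate 4, 2, 5, 1 within the knockdown group. That order was not particular to them. It was also that of Ldha, Slc16a1, Bsg, Tkt, G6pdx, the proliferation genes Ccnb1 and Birc5, and of Hbb-bs and Slc4a1. Among the controls these genes did not share an order. The other 10 markers overlapped between groups: the beta-globin gene Hbb-bs had 319, 717, 15844 and 629 FPKM against 1527 to 4806 FPKM, and the band 3 gene Slc4a1 had 10.7, 52.2, 438 and 18.8 FPKM against 33.2 to 137 FPKM. The summed level of the erythroid list was 1129, 2956, 31279 and 1374 FPKM in the knockdown libraries and 3282 to 8545 FPKM in the controls. Globin genes make up most of that sum, in which knockdown replicates 1, 2 and 5 lay below every control. The mean log2(FPKM + 1) of the same list was 5.20, 6.76, 9.23 and 5.35 with knockdown against 5.88 to 6.67 in controls, so that on this scale replicates 2 and 4 lay above every control and replicates 1 and 5 below. The part of erythroid cells in these results was not tested.

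**Figure D4:**
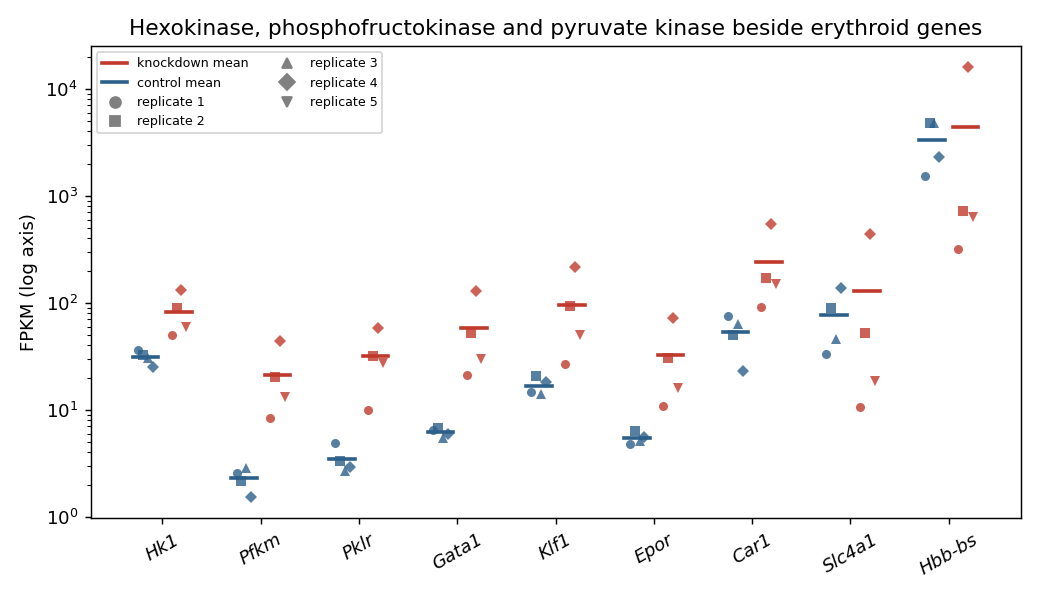
FPKM on a log axis of Hk1, Pfkm and Pklr beside the erythroid markers Gata1, Klf1, Epor, Car1, Slc4a1 and Hbb-bs, with symbols and colours for replicates and groups and bars for means. The first 7 genes are higher in every knockdown library than in any control, and the last 2 overlap.

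B cell markers were at high levels in all libraries. The summed level of 8 B cell markers was 1245 to 3265 FPKM under knockdown and 3521 to 4188 FPKM in controls, lowest in knockdown replicate 4. Of the 8, 0 passed (limma, with 0 higher and 0 lower also at an unadjusted p under 0.05). All 8 had a negative log2 difference (median −0.66), where 63.7% of all genes had a positive one. The summed level of 9 monocyte and macrophage markers was 294 to 636 against 90.8 to 287 FPKM, and 0 of the 9 passed (6 higher and 0 lower at an unadjusted p under 0.05, as 15.8% and 3.41% of all genes were). Of the 6 higher, Cx3cr1 and Fcgr1 met the filter only through the knockdown libraries. The sum of 8 megakaryocyte and platelet markers was 21.6 to 69.1 against 7.58 to 15.7 FPKM. Of the 6 tested, 2 were higher past the threshold (1.63% of all genes were) and 0 lower (0.109% of all genes were). At an unadjusted p under 0.05, 5 were higher and 1 lower, beside 15.8% and 3.41% of all genes. The lower gene was Ppbp, with 0.916 against 2.05 FPKM on average (log2 difference −0.63). It met the filter only through the control libraries. The 10 proliferation genes summed to 545 to 1932 against 434 to 577 FPKM, and 0 passed (7 higher and 0 lower at an unadjusted p under 0.05, beside the same shares of all genes). The sum of 9 neutrophil markers was 16.0 to 146 against 67.6 to 455 FPKM, with Ly6g at 0 in knockdown replicate 2. Of the 7 tested, 3 were lower past the threshold (0.109% of all genes were) and 0 higher. At an unadjusted p under 0.05, 5 were lower and 0 higher, beside 3.41% and 15.8% of all genes. For 8 T cell markers the sum was 202 to 472 against 142 to 434 FPKM, and 0 passed (0 also at an unadjusted p under 0.05). No marker was at 0 in all 8 libraries, and the part of these cells in the levels of the members was not tested.

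Across the 8 libraries, which share the group difference and the cell makeup of each spleen, Hk1 and Pfkm had a Pearson r of 0.986 on the log2 scale, and Pfkm and Slc16a3 one of 0.923. Pfkm had an r of −0.70 with Pfkp and of −0.72 with Slc2a1. Of all genes tested, those most like Pfkm included Prdx6 and Sphk1 (r = 0.998 and 0.997), and those most like Hk1 were Zdhhc3, Dnajc6 and Zbtb46 (r = 0.996, 0.995 and 0.995). For Slc16a3 they were Chpt1, Sort1 and Elovl6 (r = 0.990, 0.987 and 0.974), and for Slc2a3 they were Arl4d, Ogfrl1 and Tmem164 (r = 0.989, 0.987 and 0.984). For Ldha they were Pgrmc1, Nsmce4a and Nit2 (r = 0.996, 0.995 and 0.994). These coefficients describe 8 libraries and carry no test.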

How the data were processed

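Libraries of polyadenylated RNA were read on an Illumina NovaSeq instrument, per the labels' protocols. The unit is FPKM per gene, as the authors deposited it in 1 table. CASAVA and Cufflinks appear, with no version, in the submitters' processing notes; the aligner, build, annotation and strand setting were not given in the sources used here. An FPKM is scaled to library total, so a value moves with the most abundant transcripts of its library. Symbols came from GENCODE M21 (GRCm38), which named 53865 of 54018 identifiers.

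Groups and replicate numbers came from the sample titles. Genes reaching 1 FPKM in 4 or more of the 8 libraries were tested on log2(FPKM + 1) with limma 3.58.1 (mean-variance trend, two-sided, R 4.3.3), p-values being adjusted by Benjamini-Hochberg across all 12890 genes and called under 0.05. The fit was tested on simulated data. Isoenzyme shares of summed FPKM were compared with a two-sided exact permutation test over 70 assignments and adjusted over 7 shares. Depth was estimated from the spacing of the lowest FPKM values of genes with 1 transcript of at least 1500 bases.

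The members and lists were chosen with earlier results of these data known. Genes named were Kdm1a, the members, 2 to 4 genes of smallest p per pathway list and the 3 genes most like a member, of which 1 is not reported here. Gapdh, Hif1a, Txnip and the erythroid genes were named after their values were seen. Alternatives changed the pseudocount (0.1 or 5), filter, scaling, weights, libraries and a replicate block.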

Additional observations from a re-analysis of the deposited data

How the results depend on the processing

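Of the members, 4 were higher past the threshold with array weights (Hk1, Pfkm, Slc2a3 and Slc16a3), 1 after median-of-ratios scaling, quantile normalization or leaving out replicate 4 of both groups (Pfkm each time), and 0 with a pseudocount of 5 or no filter (limma; 6 at an unadjusted p under 0.05 in both). Leaving out 1 library gave 0 to 2. Where that gave 0, 4 or 5 members were higher at an unadjusted p under 0.05. Over all genes, 669 higher and 92 lower were called with array weights, 118 higher after median-of-ratios scaling, 108 higher after quantile normalization, 22 and 2 with a pseudocount of 5, 1 and 1 without a filter, 57 and 3 without replicate 4 of both groups, and 5 to 185 and 0 to 31 with 1 library left out, against 210 and 14. The cause of these shifts was not tested. Hk2 reversed to −0.016 after median-of-ratios scaling and −0.11 after quantile normalization, and, without knockdown replicate 4, Pkm to 0.019, Hif1a to 0.030 and Txnip to 0.064 (lowest with 1 library left out −0.26, −0.38 and −0.45). The Kdm1a difference was −0.53 to −0.35 with 1 library left out (exact permutation p from 0.0286 to 0.114).

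With the replicate number as a block, 0 genes were called higher and 0 lower over all genes (limma; 1572 and 513 at an unadjusted p under 0.05), and 0 members (4 at an unadjusted p under 0.05). The deviations of same-numbered libraries correlated at 0.16, 0.05 and −0.12 for numbers 1, 2 and 4. Those of libraries with different numbers correlated at −0.149 to 0.148. So few values cannot decide whether same-numbered libraries were paired. The paired difference of the Pfkm share over numbers 1, 2 and 4 was 29.2 percentage points. All 7 shares kept their sign in each alternative. Their adjusted p was never under 0.05, which with so few libraries says nothing about stability. The Slc16a3 share difference fell from 4.86 to 1.92 percentage points without knockdown replicate 1.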

Other observations

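Regulators of glycolysis outside the members had log2 differences on both sides of that of a typical gene, from −0.60 to 0.58. Of 26 listed, 21 passed the filter, and 0 were called in either direction (limma), with a median log2 difference of 0.20. At an unadjusted p under 0.05, 2 were higher and 0 lower, beside 15.8% and 3.41% of all genes. The 2 higher are a smaller share than that of all genes. The 2 were Pfkfb1, a bifunctional enzyme that sets the level of the phosphofructokinase activator fructose 2,6-bisphosphate (3.82 against 2.29 FPKM, log2 difference 0.58, adjusted p = 0.183), and Hnrnpa1, a splicing factor that acts on Pkm (490 against 332 FPKM, 0.54, adjusted p = 0.187). Hif1a, the hypoxia factor gene, had 18.1 ± 6.85 against 19.96 ± 5.33 FPKM (SD, n = 4), and Txnip, a brake on glucose uptake, 206 ± 72.2 against 237 ± 71.6 FPKM. Both overlapped between groups.

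Hypoxia response genes other than the members did not share one direction. Of 15 listed, 12 passed the filter, and 0 were called in either direction (limma). Their median log2 difference was 0.13, that of all genes. At an unadjusted p under 0.05, 1 was higher and 3 were lower, beside 15.8% and 3.41% of all genes. P4ha1, a collagen prolyl hydroxylase gene, had 7.38, 5.86, 5.58 and 6.07 FPKM under knockdown and 10.1, 8.49, 15.1 and 11.03 FPKM in the controls. Its log2 difference was −0.73 (limma adjusted p = 0.106). Every knockdown library lay below every control library, as in 1.9% of all genes. Adm, the adrenomedullin gene, had a log2 difference of −1.18 (adjusted p = 0.240), Ankrd37, an ankyrin repeat gene, one of −0.84 (0.209) and Mif one of 0.47 (0.254). Without knockdown replicate 4 those of Adm and Ankrd37 were −0.68 and −0.55. Slc16a3, which also responds to hypoxia in many cells, had 0.95 in the same comparison. That call was lost with any 1 library left out. The other members ran from −0.33 for Slc2a1 to 2.53 for Pfkm, with Pfkp at −0.24, Hk2 at 0.10 and Ldha at 0.64.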
